A study of Mus musculus with 12 samples.

Results

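Vip interneurons of the mouse motor cortex differ from one another in how much transcript of activity-induced genes their nuclei hold, and nuclei at the 2 ends of that range were compared. The nuclei were chosen by the data: at least 500 genes, at least 2000 UMIs (unique molecular identifiers, 1 per captured RNA molecule), Gad1 and Gad2 together at least 2 UMIs, Slc17a7 at most 2, Vip at least 3, Sst at most 3 and Pvalb at most 1. Each nucleus was thinned at random to 2000 UMIs, and the UMIs of 13 activity-induced genes (Fos, Fosb, Junb, Arc, Egr1, Egr3, Egr4, Npas4, Nr4a1, Nr4a3, Ier2, Dusp1 and Btg2, called the rule genes) were added up. Nuclei with 2 or more such UMIs were called high and nuclei with 0 silent. Of 51926 barcodes, 750 passed as Vip nuclei, of which 248 were high, 294 silent and 208 held exactly 1 rule UMI.

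The nuclei came from the caudal forelimb area of the right primary motor cortex of 6 mice aged 13 weeks, and their RNA was counted nucleus by nucleus in droplets, from the 3' end. Water was held at 1 mL a day in all mice. Mice 1, 3 and 5 stayed in the home cage as controls, and mice 2, 4 and 6 earned part of their water on days 11 to 13 by pressing a lever with the left paw while head-fixed, in sessions of 100 trials a day. No transgene or drug is named in the labels, and the sources used here do not give the strain, the sex or the time from the last session to dissection.

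Vip interneurons are GABA-releasing cells of caudal ganglionic eminence origin that mainly inhibit other interneurons, above all those with somatostatin, and so release pyramidal cells from inhibition. When a neuron fires, calcium and cyclic AMP signals act on factors already present, such as CREB bound to the cyclic AMP response element, and within minutes these start transcription of immediate early genes. Many of these encode transcription factors, and a later set of genes follows that encodes secreted peptides, synaptic scaffolds and signalling enzymes. Experience-dependent genes known in Vip cells of the visual cortex include Igf1, a growth factor gene, and Crh, a neuropeptide gene.

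Most markers fitted the label. Of the 750 nuclei, 100% held a UMI of Adarb2, an RNA-binding protein gene of this lineage, 98.8% of Synpr, 75.5% of Prox1, a transcription factor gene of the caudal lineage, 29.2% of Htr3a and 19.3% of Calb2. Lhx6 and Sox6, transcription factor genes of the other main interneuron lineage, were found in 0.400% and 4.13%, against 35.8% and 71.4% of 4698 other GABAergic nuclei, which passed the same gate with 0 Vip UMIs and no limit on Sst and Pvalb. Their median depth was 8532.5 UMIs, against 6206.5 UMIs in Vip nuclei. Elfn1, listed with the Sst markers, went the other way, in 50.5% of Vip and 24.3% of other GABAergic nuclei. Cnr1 and Cck, which also mark Sncg interneurons, were found in 81.3% and 48.9% of Vip nuclei, against 37.8% and 37.3% of the other nuclei. Sncg was found in 1.33% of Vip nuclei, against 0.490%. Just outside the limit on Vip, 166 nuclei held 1 Vip UMI and 33 held 2, and just inside it 29 held 3 and 31 held 4.

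The 2 states differed in depth. Median UMIs were 5266.5 in high and 6603.5 in silent nuclei, and the high median lay below the silent one in 6 of 6 mice, at 0.731 to 0.991 times its value (median 0.820, exact two-sided permutation p = 0.03125, the smallest that 6 pairs allow). Thinning gave every nucleus the same chance of a rule UMI, but the sums compared were of all UMIs, 145807 to 286349 per high sum and 157973 to 709597 per silent sum, each from 24 to 94 nuclei of 1 mouse. Scrublet marked 11 high (4.44%) and 12 silent (4.08%) nuclei as doublets, and these were kept. Of all barcodes, 624 shared their sequence with a barcode of another mouse, among them 8 of the 750. The mitochondrial share of UMIs was highest in trained mouse 2, at 0.0793% in high and 0.0932% in silent nuclei, against at most 0.0342% in the other mice.

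The rule genes chose the nuclei, so their levels describe the groups and are not tested. Egr1, Fos, Nr4a1 and Junb supplied 162, 142, 142 and 138 of the thinned rule UMIs of high nuclei, 69.7% together. Egr1, an early growth response factor gene, was found in 49.2% of thinned high nuclei, Nr4a1, a nuclear receptor gene, in 44.0%, Junb in 43.1% and Fos, both AP-1 subunit genes, in 37.9%. Arc and Npas4, which are strong in active pyramidal cells, were found in 4.44% and 8.87%. In the unthinned sums Fos stood at 110, 238 and 443 CPM (a gene's UMIs relative to all UMIs of the sum; lowest, median and highest of 6 mice) in high and at 15.1, 20.2 and 39.1 CPM in silent nuclei. Egr1 had medians of 272 CPM in high and 49.0 CPM in silent sums. Those of Nr4a1 were 245 and 50.3 CPM, and those of Junb 200 and 32.6 CPM. At the threshold, 115 nuclei held 2 rule UMIs, just inside, and 208 held 1, just outside, and 82 held 4 or more.

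High nuclei made up 20.2%, 32.1% and 43.4% of the Vip nuclei of control mice 1, 3 and 5 and 29.5%, 49.6% and 27.6% of those of trained mice 2, 4 and 6. The groups overlapped, with means of 31.9% ± 11.6 for the 3 controls and 35.6% ± 12.2 for the 3 trained mice (SD). The rule itself sets these shares, so they are described without a test. The same rule called 7.17% of the other GABAergic nuclei high, 34.1% of 12533 glutamatergic nuclei (Slc17a7 at least 3, Gad1 and Gad2 together at most 1) and 10.5% of 2247 oligodendrocyte nuclei, with median depths of 8532.5, 11415 and 2606 UMIs. Glutamatergic cells share activity-induced genes with Vip cells, and oligodendrocytes serve as a background for free RNA. Scrublet marked 16.6% of the high and 8.87% of the silent oligodendrocyte nuclei as doublets, and the part of doublets in their share was not tested. Vip nuclei exceeded the other GABAergic nuclei by 26.4 percentage points ± 7.53 and oligodendrocyte nuclei by 23.2 ± 10.3 (SD over 6 mice), in 6 of 6 mice for both. The difference from glutamatergic nuclei was -0.14 percentage points ± 4.20, with Vip higher in 3 of 6 mice. Without thinning, 52.6% to 87.0% of Vip nuclei and 27.8% to 45.3% of other GABAergic nuclei held 2 or more rule UMIs.

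**Figure D1:**
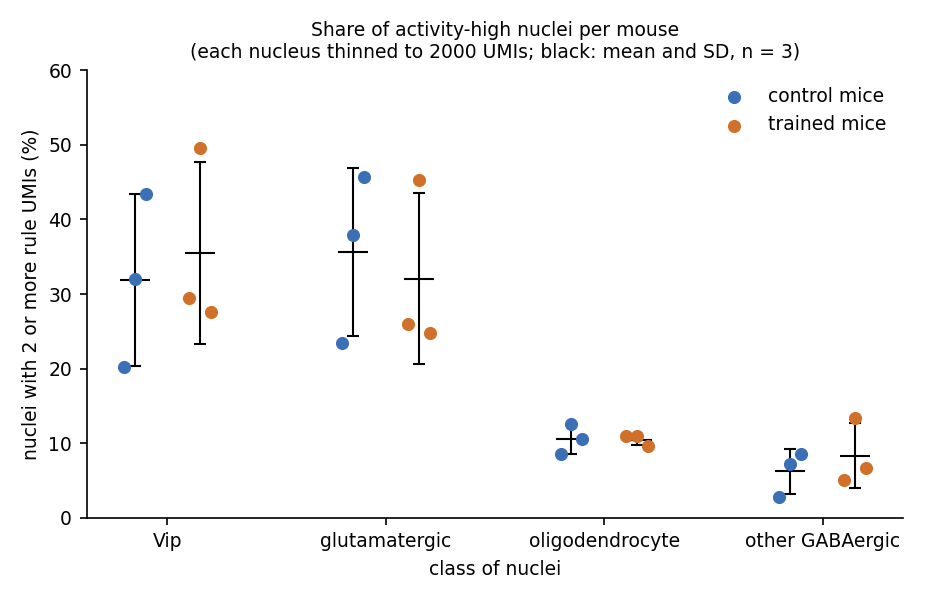
Share of nuclei with 2 or more rule UMIs (vertical axis, percent) in Vip, glutamatergic, oligodendrocyte and other GABAergic nuclei, 1 point per mouse, blue for control and orange for trained mice, with the mean and SD of 3 mice in black. Vip nuclei range from 20.2% to 49.6%, and the 6 points of other GABAergic nuclei from 2.81% to 13.3%.

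With the 13 rule genes taken out and mouse as a block, 82 of 4875 genes differed between high and silent Vip nuclei (1.68%), 43 higher (0.882%) and 39 lower (0.800%) (edgeR, quasi-likelihood, adjusted p under 0.05 after Benjamini and Hochberg). Among the genes that rose were those for peptide precursors and their processing (Tac2, Scg2, Crh, Pcsk1, Vgf, Chgb, Pam) and for late immediate early proteins (Homer1, Plk2, Tiparp). Among the genes that fell were Ptprm, Cdh9, Grip1, Nkain2, Grin3a and Grik2. The called changes ranged from 1.28-fold to 3.06-fold higher and from 0.397-fold to 0.803-fold of the silent level. Of the 43 genes, 37 were higher in all 6 mice, and of the 39, 33 were lower in all 6, where 7.65% of all genes tested moved the same way in 6 mice. All high sums lay above all silent sums for 11 of the 43 and below them for 7 of the 39, against 0.431% and 0.369% of all genes tested. The test that called these genes used the same sums and favours genes that move alike in each mouse. These counts therefore describe the calls and are not support for them.

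Unadjusted p was under 0.05 for 693 genes (14.2%). DESeq2 called 37 genes (0.759%), 15 higher (0.308%) and 22 lower (0.451%), all among the 82, so that it too called 0 in every list in which edgeR called 0, and without mouse as a block edgeR called 25, all among the 82. The count fell to 51 when trained mouse 6 was left out, to 53 for control mouse 3 and to 54 for control mouse 5. In nuclei of 3000 to 8000 UMIs, where the medians were 5015 UMIs in 190 high and 5674 UMIs in 177 silent nuclei, 39 of 2309 genes were called. Of the 82 genes 69 could be tested there, all 69 kept their direction and 23 were called again. Thinning is random, and the calls moved with its seed. With 2 other seeds 96 and 80 genes were called, 44 and 42 of them among the 82, and all of the 82 that could be tested (81 and 80) kept their direction. Of the 20 leading genes, Thsd7b, Grin3a and Hspa8 were not called with the second seed and Ptprm, Cdh9, Nkain2 and Cxcl14 not with the third. With thinned UMIs summed in place of all UMIs, 54 of the 82 could be tested, all kept their direction and 28 were called. These alternatives reuse the same mice and many of the same nuclei, so kept direction is not independent evidence for the 82.

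The proximal promoters of the called genes were searched for the cyclic AMP response element, TGACGTCA, since CREB binds it in activity-induced genes. Of the 43 higher genes 31 were in the RefSeq promoter table (GRCm38.p6, 250 bases before to 50 after the start), and 6 of these (19.4%) held the motif, Chgb, Pcsk1, Plk2, Scg2, Tubb2a and Ywhah. None of 28 matched lower genes held it, and it was found in 4.14% of 3768 matched genes among all genes tested and in 2.03% of 27025 genes of the table. The 6 stretches are shown so that the element can be read in its place, each as 30 bases in the direction of the gene with the motif in capitals.
Scg2 (chr1:79440076-79440105, minus strand, motif 68 to 61 bases before the start): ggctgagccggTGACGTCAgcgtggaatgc
Chgb (chr2:132781559-132781588, plus strand, 72 to 65 before): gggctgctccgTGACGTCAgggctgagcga
Pcsk1 (chr13:75089768-75089797, plus strand, 78 to 71 before): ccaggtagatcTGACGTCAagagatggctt
Plk2 (chr13:110394971-110395000, plus strand, 62 to 55 before): agcgctcgccgTGACGTCAcgaggccccgc
Tubb2a (chr13:34078049-34078078, minus strand, 59 to 52 before): ctctgcccccaTGACGTCAgcgggactggg
Ywhah (chr5:33018709-33018738, plus strand, 96 to 89 before): tttatagtaggTGACGTCAccttaaaaaga
All 6 copies lay between 96 and 52 bases before the start. In GENCODE M21 the stretches of Scg2 and Chgb fall in an exon of a longer transcript, and the other 4 lie upstream of the gene.

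The shorter TGACG, on either strand, which every TGACGTCA contains, was found in 15 of the 31 higher genes (48.4%), 7 of the 28 lower genes (25.0%) and 39.4% of matched genes tested. The AP-1 motif TGANTCA stood in 5 (16.1%), 3 (10.7%) and 5.84%, and the Egr motif GCGTGGGCG in 0, 1 (Cers6, 3.57%) and 1.51%. A match describes the letters of the window and not a bound site. Hspa8, Crh, Vgf, Calm2, Sparcl1, Ly6h, C1qtnf4, Cdk5r1 and Pja1 were among the higher genes with no entry in the table.

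Homer1 and Plk2 led the immediate early genes that the rule did not use. Of 42 such genes 7 reached the count needed for testing, all 7 were higher in high nuclei, 3 were called higher and 0 lower, and their median log2 fold change was 0.94, against 0.01 over all genes tested, of which 51.6% were higher in direction. The list was written with earlier results of these data known, so its direction is not independent evidence. The filter on low counts also asks for enough UMIs in only as many sums as 1 state holds. A low gene can thus be tested through its high sums, which favours the higher direction among tested members. Homer1 (chromosome 13, 93299635 to 93405129, mm10), a postsynaptic scaffold gene with a short activity-induced form, stood at 179, 304 and 359 CPM in the high sums and 113, 137 and 172 CPM in the silent sums (lowest, median and highest of 6 mice, here and below). The ranges did not overlap. Its log2 fold change was 1.06 ± 0.15 (SE), with an edgeR adjusted p of 4.17e-05. Plk2 (chromosome 13, 110395046 to 110400844), a polo-like kinase gene that acts in lowering synaptic strength, stood at 94.3, 156 and 226 CPM in the high sums and 15.3, 54.4 and 112 CPM in the silent sums, a log2 fold change of 1.48 ± 0.21 (adjusted p 4.17e-05). It was higher in 6 of 6 mice although the ranges overlapped. Tiparp, an ADP-ribosyltransferase gene, was lower in count, at 19.9, 58.9 and 97.5 CPM in the high sums and 12.8, 18.0 and 49.95 CPM in the silent sums, and rose by 1.33 ± 0.31 (adjusted p 0.0171). Tiparp was not called without control mouse 3 or 5 or trained mouse 6, with values between 1.09 and 1.43 over the 5 omissions in which it was tested.

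Coq10b, a coenzyme Q-binding protein gene, was higher in 6 of 6 mice with a log2 fold change of 0.94 ± 0.26 and missed the threshold (edgeR adjusted p 0.0509). Per1, a clock gene that CREB induces, was at 0.71 ± 0.26 (adjusted p 0.186) and Jund, an AP-1 subunit gene, at 0.46 ± 0.19 (adjusted p 0.257). Fbxo33 was the seventh tested member and had an unadjusted p above 0.05. Of the 35 members that were not tested, 4 had 0 UMIs in both states (Csrnp1, Zfp36, Amigo3 and Rrad). Among 24 of the rest with at least 10 UMIs in all, 20 took a larger share of all UMIs in high nuclei. Fosl2 had 63 UMIs in the high sums and 33 in the silent sums, which held 1347116 and 2007334 UMIs in all, Arl5b 72 and 35, Gadd45b 26 and 9, and Atf3 9 and 0. These counts are too few for the test and are given as counts. No like share over other untested genes was computed, so 20 of 24 only describes this list.

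Genes of neuropeptides and their granules made up 8 of the 82 calls. Of 27 in the list 21 were tested, 7 were called higher and 1 lower, 18 of the 21 were higher in direction, and the median log2 fold change was 0.40. Over all genes tested 0.882% were called higher, 0.800% lower and 51.6% were higher in direction, with a median of 0.01. Like the immediate early list, this and the other lists were written with earlier results of these data known, so their counts are not independent evidence. The list summed to 9769, 10412 and 11680.2 CPM in the high sums and 7344, 7857 and 8377 CPM in the silent sums, with no overlap. Vip is included in this total, with 5401 UMIs in the high and 5220 in the silent sums. As a gate gene with a limit in absolute UMIs, Vip needs a higher share in nuclei of lower depth. The summed level is therefore a description without a test.

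Tac2 (chromosome 10, 127724478 to 127731768), the neurokinin B precursor gene, showed the smallest p of all genes. It stood at 703, 835 and 1109 CPM in the high sums and 85.6, 307 and 412 CPM in the silent sums, a 3.06-fold difference (log2 1.62 ± 0.18, adjusted p 1.63e-06). Each of the 6 high sums lay above each silent sum, and in thinned nuclei Tac2 was found in 42.3% of high and 23.8% of silent nuclei. Control mouse 5 had both the lowest silent level, 85.6 CPM, and the highest high level, 1109 CPM. Scg2 (chromosome 1, 79434669 to 79440120), the secretogranin II gene whose product sorts peptides into granules and is cut into secretoneurin, stood at 459.7, 567 and 615 CPM in the high sums and 246, 330.1 and 356 CPM in the silent sums, again with no overlap (log2 0.77 ± 0.11, adjusted p 6.85e-05).

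Among the list's genes for peptide-processing enzymes Pcsk1 and Pam rose, while Pcsk2, another convertase gene, and Cpe, a carboxypeptidase gene, did not pass (log2 0.33 ± 0.11 and 0.15 ± 0.12, edgeR adjusted p 0.131 and 0.622). Pcsk1, the prohormone convertase gene, stood at 94.9, 131 and 237 CPM in the high sums and 46.8, 76.6 and 139 CPM in the silent sums (log2 0.82 ± 0.19, edgeR adjusted p 0.0160), and Pam, which amidates peptide ends, at 635, 876 and 1239.6 CPM in the high sums and 518, 654 and 817 CPM in the silent sums (log2 0.42 ± 0.10, adjusted p 0.0292). Their ranges overlapped, and both were higher in 6 of 6 mice. Vgf, a precursor of several secreted peptides, stood at 127, 175 and 338 CPM in the high sums and 80.5, 104 and 141 CPM in the silent sums and was higher in 5 of 6 mice (log2 0.74 ± 0.18, adjusted p 0.0236). Vgf was no longer called without control mouse 1 or without any of trained mice 2, 4 and 6, with values between 0.51 and 0.92. Pcsk1 was not called without control mouse 1 or trained mouse 4, with values between 0.68 and 0.95. DESeq2 called neither Vgf nor Pcsk1. With either other thinning seed, or with thinned UMIs summed, Vgf was not called. Chgb, a granin gene, rose by 0.60 ± 0.15 (adjusted p 0.0337).

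Cadps2, which primes dense-core granules for release, went the other way. It stood at 90.5, 238 and 349.9 CPM in the high sums and 251, 472 and 1091 CPM in the silent sums (log2 -1.15 ± 0.23, edgeR adjusted p 0.00566) and was lower in 6 of 6 mice, although DESeq2 gave an adjusted p of 0.271. With Scg2, Pcsk1, Vgf and Fam126b, 4 of 15 tested genes of the delayed activity list (39 in all) were called higher and 0 lower, with a median of 0.24. Among all genes tested 0.882% were called higher, and the median was 0.01.

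**Figure D2:**
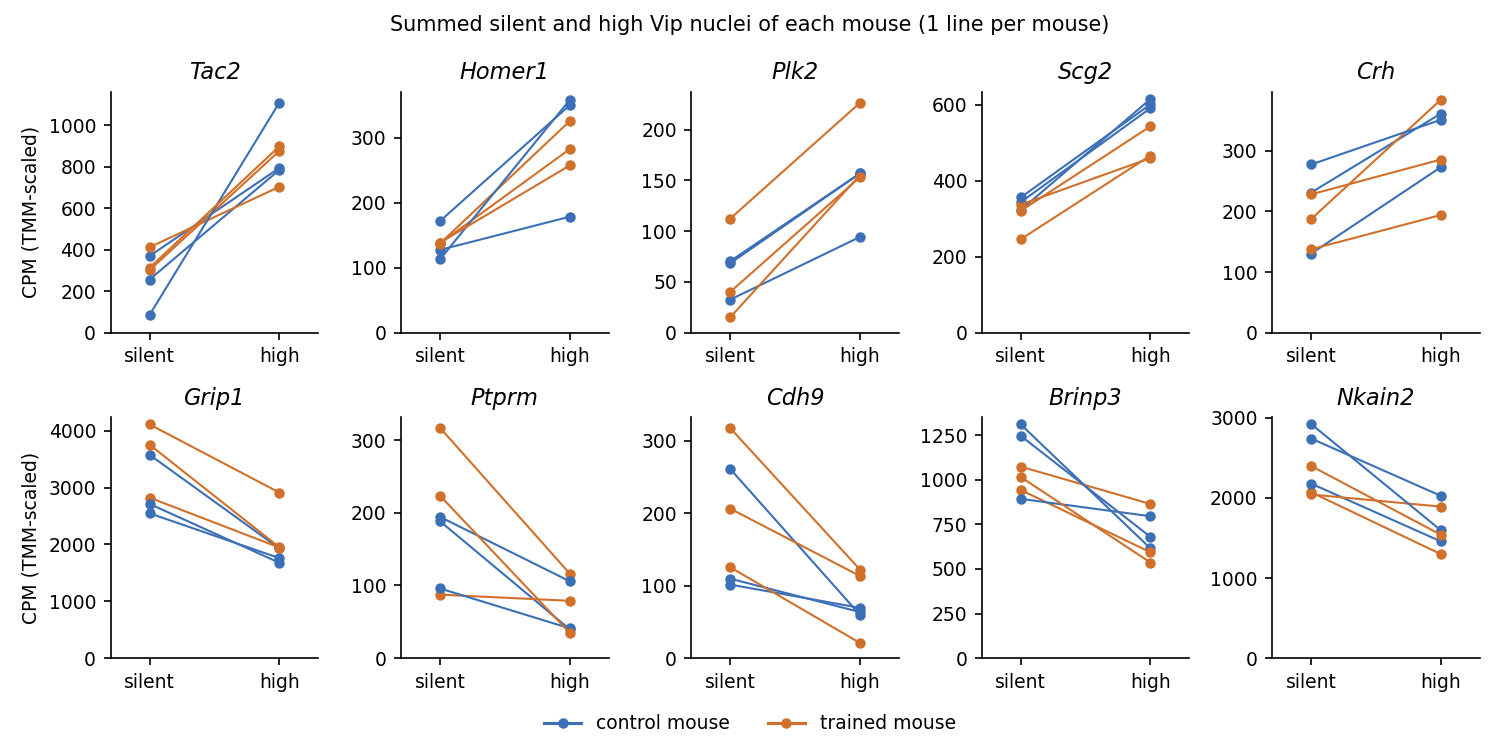
TMM-scaled CPM (vertical axis) in the summed silent and high Vip nuclei of each mouse, joined by a line, for 5 genes called higher (top) and 5 called lower (bottom), with control mice in blue and trained mice in orange. Every line of Tac2, Homer1, Plk2, Scg2 and Crh goes up and every line of Grip1, Ptprm, Cdh9, Brinp3 and Nkain2 goes down. The steepest Tac2 line is that of control mouse 5, from 85.6 to 1109 CPM.

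Crh, corticotropin-releasing hormone, is 1 of 4 genes listed as induced by experience in Vip neurons, of which 2 were tested. It stood at 194, 318 and 384 CPM in the high sums and 130.3, 208 and 277 CPM in the silent sums and rose by 0.65 ± 0.13 (edgeR adjusted p 0.00582), in 6 of 6 mice. Crh was not called with thinned UMIs summed, in nuclei of 3000 to 8000 UMIs, or in control or trained mice alone. Igf1 stood at 549, 706 and 1425 CPM in the high sums and 449, 681 and 920.4 CPM in the silent sums, a log2 fold change of 0.33 ± 0.11 that did not pass (adjusted p 0.135), higher in 4 of 6 mice. Bdnf, a neurotrophin gene, had 9 and 5 UMIs in all in high and silent sums and was not tested. Vip itself stood at 3224, 3841 and 5024 CPM in the high sums and 2223, 2629 and 3072 CPM in the silent sums, with no overlap and a log2 difference of 0.55 ± 0.09. Vip is a gate gene with a limit in absolute UMIs, and nuclei of lower depth need a higher share of Vip to pass it, so this difference is given as a description without a test. In thinned nuclei, the summed Vip level was 2733, 3192, 3604, 3931 and 4402 CPM in nuclei with 0, 1, 2, 3 and 4 or more rule UMIs.

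Some markers of kinds of Vip cell were among the called genes. Of 28 such markers 16 were tested, 3 were called higher (Tac2, Cxcl14 and Crh) and 0 lower, with a median of 0.26, and their summed level was 2636 to 3094 CPM in high and 1911 to 2163 CPM in silent sums. The share called higher over all genes tested was 0.882%, with a median of 0.01. Cxcl14, a chemokine gene, stood at 328, 391 and 452 CPM in the high sums and 161, 250.4 and 296 CPM in the silent sums, with no overlap (log2 0.68 ± 0.14, edgeR adjusted p 0.00579), and was not called without control mouse 3 (values 0.52 to 0.80 over the 6 omissions). Calb2 was found in 6.85% of thinned high and 11.6% of silent nuclei, Reln in 7.26% and 12.9%, Htr3a in 16.5% and 14.6%, and Cck in 29.4% and 27.2%. Whether high nuclei hold more nuclei of 1 kind, or more transcript per nucleus of the same kind, was not tested.

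Other genes among the 10 of smallest p that rose encode signalling and folding proteins. Rgs16, which shortens G protein signals, stood at 83.2, 98.8 and 138 CPM in the high sums and 35.8, 45.2 and 67.6 CPM in the silent sums, with no overlap (log2 1.03 ± 0.20, edgeR adjusted p 0.00286). Hspa8, a constitutive Hsp70 chaperone gene, stood at 388, 609 and 766 CPM in the high sums and 290.3, 418 and 524 CPM in the silent sums (log2 0.56 ± 0.11, adjusted p 0.00286). Atp2c1, a calcium pump gene of the Golgi, rose by 0.58 ± 0.12 (adjusted p 0.00579).
Cenpa, a centromeric histone gene, was low, at 54.6, 71.5 and 118 CPM in the high sums and 12.8, 29.9 and 56.2 CPM in the silent sums, and rose by 1.39 ± 0.26 (adjusted p 0.00238). Rgs16, Cenpa, Plk2 and Tiparp had no adjusted p from DESeq2, which set them aside for low counts.

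Grip1 (chromosome 10, 119453830 to 120087261), a scaffold gene that anchors AMPA receptors, had the smallest p among the genes that fell. It stood at 1677, 1938 and 2912 CPM in the high sums and 2547, 3198 and 4109 CPM in the silent sums, lower in 6 of 6 mice (log2 -0.68 ± 0.09, edgeR adjusted p 2.03e-05). Ptprm, a receptor tyrosine phosphatase gene of cell adhesion, stood at 34.8, 59.998 and 116 CPM in the high sums and 87.4, 191 and 317 CPM in the silent sums (log2 -1.33 ± 0.21, adjusted p 1.61e-04), and Cdh9, a cadherin gene, at 20.9, 66.4 and 122 CPM in the high sums and 101, 166 and 317 CPM in the silent sums (log2 -1.25 ± 0.19, adjusted p 1.61e-04). Both were lower in 6 of 6 mice with overlapping ranges. Brinp3 stood at 536, 648 and 865 CPM in the high sums and 893, 1045 and 1311 CPM in the silent sums (log2 -0.66 ± 0.11, adjusted p 5.85e-04) and Nkain2, which encodes a partner of the sodium pump, at 1298, 1567 and 2025 CPM in the high sums and 2042, 2288 and 2921 CPM in the silent sums (log2 -0.55 ± 0.09, adjusted p 6.40e-04). For these 2 genes all high sums lay below all silent sums.

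Thsd7a and Thsd7b, related thrombospondin-repeat genes, had log2 fold changes of -0.69 ± 0.12 and -0.97 ± 0.18 (edgeR adjusted p 4.96e-04 and 0.00155). The log2 fold changes of Egfem1 and Mgat4c, a glycosyltransferase gene, were -0.62 ± 0.09 and -0.72 ± 0.11 (adjusted p 1.23e-04 and 1.61e-04). Grin3a, an NMDA receptor subunit gene, stood at 38.8, 123 and 157 CPM in the high sums and 122, 211 and 349 CPM in the silent sums (log2 -0.91 ± 0.17, adjusted p 0.00238). Of these 5 genes Thsd7b was lower in 5 of 6 mice and the other 4 in 6. Of the called genes many overlap others: 54 of the 82 called genes overlap at least 1 other gene in GENCODE M21, Grip1 for example its antisense genes Grip1os1 to Grip1os3, and whether the counting used strand is not given in the sources used here.

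Gene length separated the 2 directions. The median length was 8.05 kb for the 43 higher genes, 551 kb for the 39 lower genes and 57.6 kb for all genes tested, and 25 of the 43 were up to 10 kb long while 25 of the 39 were over 300 kb. Over all tested genes the median log2 fold change was 0.27 for 534 genes of up to 10 kb, 0.11 from 10 to 30 kb, -0.01 from 30 to 100 kb, -0.07 from 100 to 300 kb and -0.12 for 458 genes over 300 kb. In other GABAergic nuclei the shortest and longest of these groups stood at 0.14 and -0.06, and in glutamatergic nuclei at 0.11 and -0.06. With the median of its length group subtracted, each of the 82 genes kept its direction, but no other outcome was possible. The smallest called changes, 0.35 and -0.32, are larger than any of these medians in the same direction. Tac2 then stood at 1.34, Homer1 at 1.12, Plk2 at 1.21, Crh at 0.38, Grip1 at -0.56, Ptprm at -1.21 and Cdh9 at -1.19. In sums of thinned UMIs the shortest group had a median of 0.31 and the longest -0.06, and in nuclei of 3000 to 8000 UMIs the medians were 0.18 and -0.05. The part of length and depth in single calls was not tested further. Gene lists, above and below, are set beside all genes tested and not beside genes of like length.

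**Figure D3:**
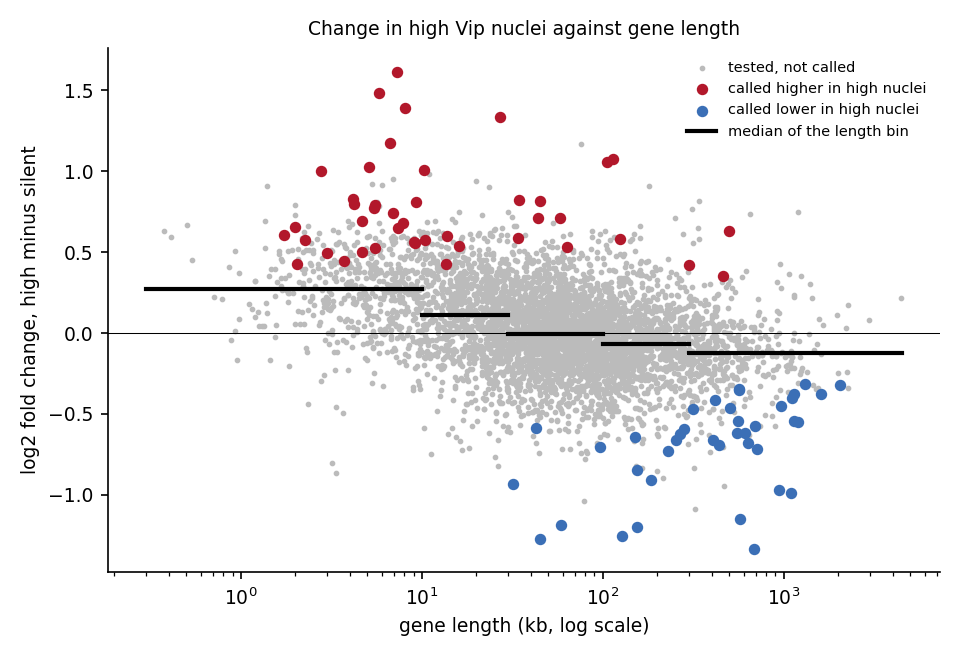
Log2 fold change of high over silent Vip nuclei (vertical axis) against gene length in kb (horizontal axis, log scale), 1 point per gene tested, with the 43 genes called higher in red, the 39 called lower in blue and the median of each of 5 length groups as a black line. The medians step down from 0.27 to -0.12, and the red points lie mostly left and the blue points right.

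Of 27 tested glutamate receptor and auxiliary subunit genes (30 in the list), 3 fell, Grin3a, Grik2 and Shisa6, and 0 rose. In direction 19 of 27 were lower and 8 higher, and the median was -0.07 against 0.01 over all genes. Among all genes tested, however, the median was -0.07 from 100 to 300 kb and -0.12 over 300 kb. The 3 genes that fell are 184, 694 and 314 kb long. Grik2, a kainate receptor gene, stood at 1606, 2589 and 3275 CPM in the high sums and 2905, 3958 and 4911 CPM in the silent sums (log2 -0.58 ± 0.12, edgeR adjusted p 0.00586, and -0.37 without control mouse 5), and Shisa6, an AMPA receptor auxiliary gene, at -0.47 ± 0.12 (adjusted p 0.0383), lower in 5 of 6 mice. Shisa6 was called in only 2 of 6 fits that left out 1 mouse, those without control mouse 1 and trained mouse 6 (values from -0.61 to -0.38). DESeq2 called neither Grik2 nor Shisa6. No ion channel gene was called by edgeR (0 of 37, 7 with unadjusted p under 0.05). Kcnc2, a Kv3 potassium channel gene, stood at -0.35 ± 0.10 (adjusted p 0.0672) and Cacna1c, a calcium channel gene, at -0.41 ± 0.13 (adjusted p 0.0849).

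In the CREB pathway 1 of 21 tested genes was called, Pde10a, a cyclic nucleotide phosphodiesterase gene, at 0.35 ± 0.09 (edgeR adjusted p 0.0386). Pde10a was not called by DESeq2. In edgeR it was not called without control mouse 1 or 3 or without trained mouse 2 or 4 (values 0.29 to 0.39). Pde4d (-0.35 ± 0.10) and Sik3 (0.26 ± 0.11) did not pass (adjusted p 0.0523 and 0.252). All 6 tested MAP kinase feedback genes were higher in direction and none passed, with Dusp3 at 0.51 ± 0.23, Dusp10 at 0.29 ± 0.22 and Spry2 at 0.21 ± 0.29 (1 with unadjusted p under 0.05). In the insulin and IGF pathway 0 of 10 passed, with 1 under an unadjusted 0.05, Igf1, and with Irs1 at 0.34 ± 0.20 and Irs2 at 0.28 ± 0.22.

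All 11 tested heat shock and stress genes were higher in direction, as were 51.6% of all genes tested, and Hspa8 was called. Hsp90ab1 stood at 0.40 ± 0.11 (edgeR adjusted p 0.0636) and Hspa5 at 0.40 ± 0.18 (0.308). None of 16 GABA genes passed (2 with unadjusted p under 0.05), with Gabbr1 at 0.46 ± 0.13, Abat at -0.45 ± 0.16 and Gabra2 at -0.32 ± 0.17. None of 14 neuromodulator receptor genes passed (4 under an unadjusted 0.05), with Adrb1 at 0.98 ± 0.30, Cnr1 at -0.29 ± 0.11 and Adra1b at 0.34 ± 0.14. None of 8 glucocorticoid response genes passed (2 under an unadjusted 0.05), with Nr3c2 at -0.34 ± 0.12, Per1 as above and Klf9 at 0.37 ± 0.21.

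Among 15 tested genes of the Vip and caudal lineage Adarb2 fell, at -0.34 ± 0.08 (edgeR adjusted p 0.0194), a call lost without control mouse 1 or 3 or trained mouse 6 (values -0.43 to -0.27). Npas3 and Npas1, lineage transcription factor genes, stood at -0.25 ± 0.09 and -0.47 ± 0.20 (adjusted p 0.171 and 0.266).

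The part of other cells' RNA in the result was not tested, and the summed levels of marker lists of other cells overlapped between the states. These sums do not measure other cells' RNA alone. Cnr1 and Elfn1, which are among the listed markers, were found in 81.3% and 50.5% of Vip nuclei. Slc17a7, Sst and Pvalb, which the gate limits, are also counted in the sums. Glutamatergic markers summed to 655, 822 and 920.4 CPM in high and 627, 688 and 905 CPM in silent sums, higher in 4 of 6 mice. Of these Rorb stood at 0.91 ± 0.28, Nrgn at 0.24 ± 0.16 and Camk2a at 0.09 ± 0.12, and 0 of 5 tested passed. Astrocyte markers summed to 349, 449 and 628 CPM against 295, 407 and 525 CPM, higher in 3 of 6 mice, with Slc1a2 at 0.41 ± 0.13 and Slc4a4 at -0.08 ± 0.16. Oligodendrocyte markers summed to 43.7, 89.6 and 177 CPM against 50.3, 133 and 329 CPM, higher in 2 mice, and microglial and vascular markers to 39.8, 60.6 and 148 CPM against 62.4, 70.0 and 81.5 CPM, higher in 3, with Cldn5, Col1a1 and Dcn at 0 UMIs. Sst and Pvalb interneuron markers summed to 190, 229 and 312 CPM against 181, 245 and 337 CPM, higher in 3 mice, with Satb1 at -0.02 ± 0.25, Elfn1 at -0.01 ± 0.17 and Nkx2-1 and Chodl at 0. Lamp5 and Sncg markers summed to 633, 714 and 997 CPM against 664, 873 and 1411 CPM, and were higher in 1 of 6 mice. Both tested members, Reln at -0.70 ± 0.30 and Cnr1 at -0.29 ± 0.11, were lower with an unadjusted p under 0.05, and neither passed. The 2 tested mitochondrially encoded genes, mt-Co3 and mt-Co1, stood at 0.21 ± 0.20 and -0.03 ± 0.19.

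Nuclei with exactly 1 rule UMI were compared with the same silent nuclei, so the values stand side by side and are not a second test. Of 4584 genes 10 were called, 3 higher (0.0654%) and 7 lower (0.153%), 0.218% in all, unadjusted p was under 0.05 for 289 (6.30%), and 0 were called by DESeq2. Without control mouse 3, 2 genes were called, and without trained mouse 2 or 6, 6 each. Log2 fold changes of nuclei with 1 and with 2 or more rule UMIs were 0.57 and 1.62 for Tac2, 0.50 and 1.06 for Homer1, 0.45 and 1.48 for Plk2, and 0.50 and 0.77 for Scg2. They were -0.38 and -0.68 for Grip1 and -0.19 and -1.33 for Ptprm. Of these 6 genes Grip1 was called at 1 rule UMI (edgeR adjusted p 0.0350), but not with another random seed for thinning. With that seed 12 genes were called, of which 1, Cadps2, was among the 10, and 9 of the 10 kept their direction.

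Over the whole range of rule UMIs the levels changed by steps. In thinned nuclei of all mice together, Tac2 stood at 345, 486, 630.4, 765 and 890.2 CPM in nuclei with 0, 1, 2, 3 and 4 or more rule UMIs (294, 208, 115, 51 and 82 nuclei). Plk2 stood at 35.7, 69.7, 139, 137 and 232 CPM. Crh did not follow the same steps, at 201, 252, 309, 157 and 390.2 CPM, and Vgf stood at 100.3, 175, 174, 176 and 152. These values pool mice that contribute different shares of each class, and they carry no test.

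**Figure D4:**
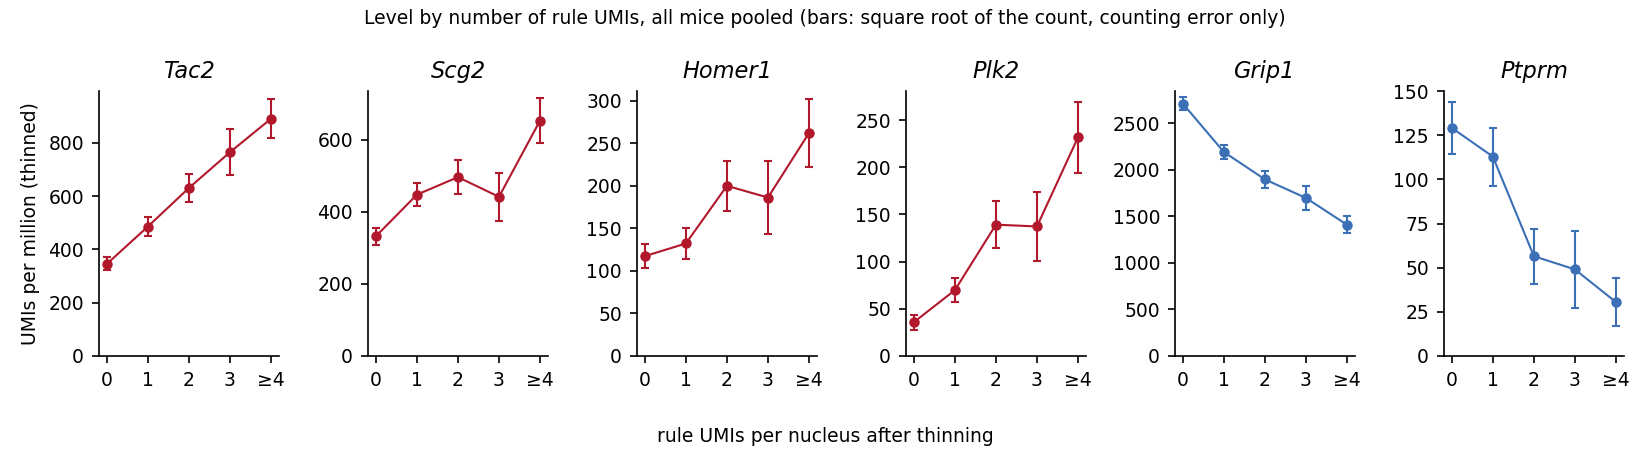
Level in thinned Vip nuclei of all mice (vertical axis, CPM) by the number of rule UMIs per nucleus (horizontal axis), for 4 genes called higher (red) and 2 called lower (blue), with bars of counting error only. Tac2 climbs from 345 to 890.2, and Ptprm goes from 129 to 30.5 CPM.

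Whether training changed the difference between states was tested gene by gene. The interaction of training with state passed for 3 of 4878 genes (0.0615%), 1 higher (0.0205%) and 2 lower (0.041%), with 256 (5.25%) at an unadjusted p under 0.05, and DESeq2 called 0. Fam19a1, a secreted neurokine-like gene, stood at 19.9, 62.1 and 22.4 CPM in high and 99.2, 175 and 58.2 CPM in silent sums of control mice 1, 3 and 5. In trained mice 2, 4 and 6 it stood at 116, 99.5 and 174 CPM in high and 64.9, 18.7 and 98.4 CPM in silent sums. High sums were lower in each control and higher in each trained mouse, an interaction of 2.74 ± 0.42 (edgeR adjusted p 0.000788). Gpc5, a glypican gene, had an interaction of -2.47 ± 0.50 and Pde3a, a phosphodiesterase gene, of -2.23 ± 0.46 (adjusted p 0.0432 each). With another random seed for thinning none of the 3 was called, and leaving out 1 mouse gave 0 to 5 calls: 0 without mouse 3 and 5 without mouse 5 (controls), and 1 without trained mouse 2. Among genes that did not pass, those of smallest p were Pbx3 (-1.32), Cntnap2 (0.68) and Prkg1 (2.16). None of the genes called between high and silent nuclei passed this interaction.

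The same rule applied to the other GABAergic nuclei (337 high, 3404 silent) called 735 of 11650 genes (6.31%), and 55 of 6334 genes (0.868%) differed in response between the 2 classes by the interaction of class with state, 17 higher (0.268%) and 38 lower (0.6%) in Vip. The other class holds several kinds of interneuron, and Scrublet marked 9.20% of its high and 5.20% of its silent nuclei as doublets. Nrgn, a marker of glutamatergic cells, was 1.08 ± 0.11 higher (log2) in its high nuclei (edgeR adjusted p 8.59e-07). The part of the mix of kinds, of doublets and of glutamatergic RNA in these values was not tested. Arpp21, a cyclic AMP-regulated phosphoprotein gene, had a log2 fold change of -0.07 ± 0.11 in Vip and 1.58 ± 0.10 in other GABAergic nuclei (interaction -1.67 ± 0.16, edgeR adjusted p 1.73e-07). Lingo2 stood at -0.23 and 0.62, Ncam2 at -0.29 and 0.68, Kcnmb2, a potassium channel subunit gene, at 0.21 and -0.75, Cntn5 at 0.35 and -0.67, and Clstn2 at 0.35 and -0.56.

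Of the 20 leading genes of Vip nuclei, 7 were among these 55. The 20 were picked by their change in the same Vip sums that the interaction uses, so this count is not independent evidence. Cxcl14 rose in both classes and more in the other one, by 0.68 in Vip and 1.91 in other GABAergic nuclei (interaction -1.24 ± 0.28, edgeR adjusted p 0.0178). The 6 that fell in Vip nuclei were Ptprm, Cdh9, Nkain2, Thsd7a, Thsd7b and Grin3a, with values in the other class of -0.30, -0.21, 0.20, 0.30, 0.22 and 0.07. Cadps2 stood at -1.15 in Vip and 0.47 in the other class (interaction -1.63 ± 0.38, adjusted p 0.0229), and Pam at 0.42 and -0.21 (0.62 ± 0.14, adjusted p 0.0130). For Tac2 (1.62 and 1.67), Homer1 (1.06 and 1.66) and Scg2 (0.77 and 0.53) the interaction did not pass, with differences of -0.03 ± 0.45, -0.61 ± 0.22 and 0.23 ± 0.16.

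Against glutamatergic nuclei (4278 high, 4902 silent, where 30% of 14171 genes were called), 74 of 12390 genes (0.597%) differed in response, 34 higher (0.274%) and 40 lower (0.323%) in Vip. Brinp3 stood at -0.66 in Vip and 0.45 in glutamatergic nuclei (interaction -1.09 ± 0.12, edgeR adjusted p 4.56e-07), Shisa6 at -0.47 and 0.62, and Grip1 at -0.68 and -0.02. Vwc2l, a secreted BMP antagonist gene, stood at 0.43 and -1.21 (1.65 ± 0.20, adjusted p 4.13e-06), Kcnip1, a potassium channel interacting protein gene, at 0.06 and -1.00, and Galnt14 at 0.03 and -0.75. Plk2 rose more in Vip nuclei, by 1.48 against 0.38 (interaction 1.10 ± 0.20, adjusted p 0.00102). Homer1 stood at 1.06 and 1.26 and Scg2 at 0.77 and 0.91, with differences of -0.20 ± 0.16 and -0.12 ± 0.13 that did not pass. The 2 interaction tests share the Vip sums with each other and with the comparison that ranked the Vip genes.

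**Figure D5:**
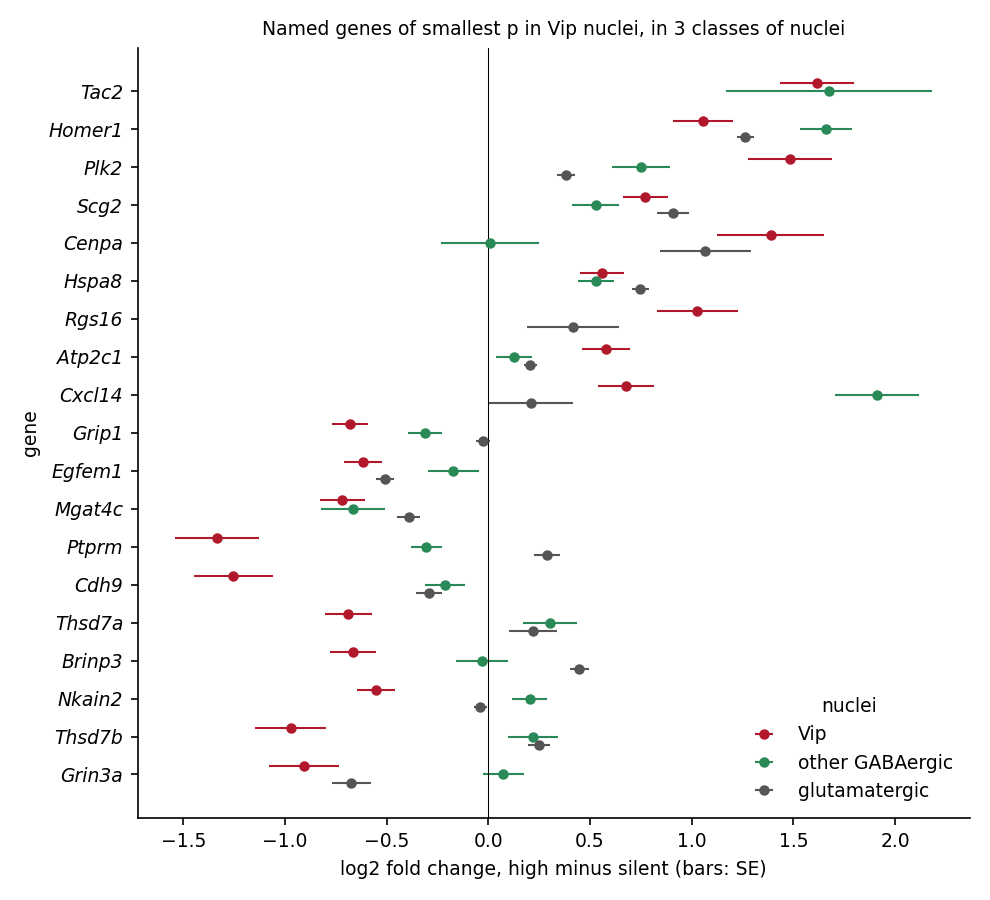
Log2 fold change of high over silent nuclei with SE (horizontal axis) for the named genes of smallest p in Vip nuclei, higher ones above and lower ones below, in Vip (red), other GABAergic (green) and glutamatergic nuclei (grey); Tac2 in glutamatergic and Rgs16 in other GABAergic nuclei were not tested and have no point. Ptprm is at -1.33 in Vip nuclei, -0.30 in other GABAergic and 0.29 in glutamatergic nuclei, and Homer1 lies above 1 in all 3 classes.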

How the data were processed

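Single-nucleus libraries of 6 mice, each sequenced in a shallow and a deep run, were deposited as 1 matrix of UMI counts, made by the authors with Cell Ranger 4.0.0 and build mm10, per the submitters' processing notes. The runs cannot be separated in the matrix, and the sources used here do not give the barcode filter, the counting of introns or the use of strand. The deposited barcode and gene lists hold other text (names), and the suffix of each barcode gave the mouse. The mice held 46798359 to 91495029 UMIs each.

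Nuclei were gated and thinned with numpy 2.4.6 (seed 1), and all their UMIs were summed per mouse and state, giving 12 sums. The test was edgeR 4.0.16 (quasi-likelihood, TMM scaling, its filter on low counts, R 4.3.3) with mouse as a block, since high and silent nuclei come from the same animal, and Benjamini-Hochberg adjustment. CPM of the sums are TMM-scaled, and those of rule genes and thinned nuclei are not. Interactions of state with training and with class were fitted likewise. DESeq2 1.42.0 was an alternative. Depth was compared with an exact permutation test in scipy 1.17.1, and shares, which the rule sets, were not tested although a test had been planned. P-values rest on how far the difference between high and silent nuclei varies from mouse to mouse. In edgeR this spread is estimated in part from other genes. The randomness of thinning is not included in it. Doublets were kept, and Scrublet (scanpy 1.11.5) was an alternative. On counts simulated for the high and silent comparison (4878 genes), the test recovered 87.9% of 2-fold and 100% of 4-fold changes. On the same counts 8 of 178 calls were false. Recovery of changes below 2-fold was not tested. The median of the genes called in the data was 1.60-fold for the higher ones. For the lower ones it was 0.649-fold of the silent level. Other alternatives were the filter, scaling, seed, thresholds, gate, thinned sums, each training group alone and leaving out each mouse.

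The members and gene lists were chosen with earlier results of these data known. Named genes were the 10 higher and 10 lower of smallest p without predicted names, the tested immediate early and experience-induced genes with unadjusted p under 0.05, the 3 of smallest p in each other list, the 3 in each direction of each interaction, and Igf1, Crh and Vip. Some genes that this rule selects are not reported here. Other genes named in the text were chosen after their values were seen.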

Additional observations from a re-analysis of the deposited data

Results flagged for a closer look

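In 61 groups of 6 mice, 9 had a highest or lowest mouse far from the other 5, where chance gives about 1 in 20. Trained mouse 2 was the highest of the high sums for Grip1 (2912 CPM), Thsd7a (788 CPM) and Vgf (338 CPM), and its mitochondrial share stood apart in high (0.0793%) and silent nuclei (0.0932%). Trained mouse 6 had the highest Cenpa level in high sums (118 CPM) and the lowest Scg2 level in silent sums (246 CPM). Shisa6 was highest in the high sum of control mouse 1 (556 CPM), and Tiparp in the silent sum of trained mouse 4 (49.95 CPM).

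The response to state differed between trained and control mice, by the interaction in edgeR, for Fam19a1 (2.74), Gpc5 (-2.47) and Pde3a (-2.23, all log2 differences). Between Vip and other GABAergic nuclei it differed for Kcnmb2 (0.95), Cntn5 (1.01) and Clstn2 (0.89) and for Arpp21 (-1.67), Lingo2 (-0.87) and Ncam2 (-0.99), among 55 genes. Between Vip and glutamatergic nuclei it differed for Vwc2l (1.65), Kcnip1 (1.04) and Galnt14 (0.80) and for Brinp3 (-1.09), Shisa6 (-1.07) and Grip1 (-0.64), among 74 genes.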

How the results depend on the processing

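Against 82 calls between high and silent Vip nuclei, DESeq2 called 37 genes in all (37 of them among the 82), a high threshold of 1 rule UMI 30 (28), thinned sums 36 (28), control mice alone 37 (25), trained mice alone 45 (26) and nuclei of 3000 to 8000 UMIs, an alternative chosen after seeing the data, 39 (23). Without the block for mouse (no pairing) 25 were called, all among the 82, and Grin3a, Hspa8, Atp2c1, Crh, Grik2, Pcsk1, Adarb2, Vgf, Shisa6 and Pde10a were no longer among them. Leaving out 1 mouse gave 51 to 77 calls, the lowest for trained mouse 6, with 53 for control mouse 3 and 54 for control mouse 5. All of the 29 called genes that the naming rule chose kept their direction in each alternative that tested them. The alternatives share mice and nuclei with the main fit, so this is not independent evidence. The training interaction (3 calls) gave 0 with DESeq2, 8 without a filter, 1 with the second seed and 0 to 5 with 1 mouse left out. The class interaction with other GABAergic nuclei (55) gave 113 without a filter and 109 with the second seed, and that with glutamatergic nuclei (74) gave 159 with DESeq2 and 161 without a filter. Exactly 1 rule UMI against silent (10) gave 0 with DESeq2, 29 without a filter, 12 with the second seed (1 shared with the 10) and 2 to 11 with 1 mouse left out. The trained minus control share (3.66 points) ranged over omissions from -3.36 (trained mouse 4) to 9.40 (control mouse 5), and was -2.17 without control mouse 1.

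These values, all of genes that were not called, changed sign. Camk2a was -0.0419 in control mice, -0.00275 with the strict gate and -0.0514 in thinned sums. Elfn1 was 0.00538 with DESeq2, 0.000419 without TMM, 0.00542 without the block, 0.0398 without doublets, 0.0668 and 0.0123 with the other seeds, 0.38 in trained mice and 0.11 at 3000 to 8000 UMIs, and -0.13 to 0.12 with 1 mouse left out. Satb1 was 0.20 from 1 rule UMI, 0.0372 without the block, 0.0555 at Vip of at least 5 and -0.23 to 0.19 with 1 mouse left out. The value of mt-Co1 was 0.0151 without doublets, 0.22 with the second seed, 0.0948 at Vip of at least 5 and -0.13 to 0.0526 with 1 mouse left out, and that of mt-Co3 was -0.0308 from 1 rule UMI. Slc4a4 was 0.0300 with the second seed and -0.16 to 0.00297 with 1 mouse left out, Nrgn -0.0188 in trained mice and -0.23 at 3000 to 8000 UMIs, Jund (0.46 ± 0.19 over all high and silent nuclei) -0.0443 there, and the training interaction of Prkg1 (2.16 ± 0.57) -0.15 with the second seed. With 24 to 94 nuclei a sum, depth limits the test to 4875 genes, and most immediate early genes had too few UMIs.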
